A study of Mus musculus with 31 samples.

Results

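The genes described here are 37 cell cycle and DNA replication genes, measured on microarrays of fetal mouse gonads. They were taken from a list of 38 by gene symbol, and they divide into 16 genes of S phase, when DNA is copied, and 21 genes of mitosis, when chromosomes are separated. Ccnb1, which encodes cyclin B1, had no probe set carrying its symbol alone and is not analysed here. Each gene was represented by the probe set with the highest mean level over all 31 arrays. The array named 18193 genes, of which 11777 passed a filter on low signal and were tested, all 37 members among them. Of the members, 36 stood above the array median on all 31 arrays, and Tyms did so on 23.

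Before DNA is copied, the MCM helicase (Mcm2 to Mcm7) is loaded onto origins by Cdc6 and Cdt1, geminin (Gmnn) blocks repeated loading, and cyclin E with its kinase starts synthesis. The transcription factor E2F1 drives many S phase genes. Entry into mitosis depends on the kinase Cdk1 with cyclins A and B, and Aurora and Polo-like kinases, checkpoint proteins and motor proteins then carry the chromosomes apart. In the fetal mouse gonad at this stage, germ cells of the ovary leave mitosis, pass through a last S phase and enter meiosis, germ cells of the testis go into mitotic arrest, and Sertoli cells of the testis keep dividing.

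Gonads were collected at embryonic day 14.5. Every group carried the Sf1-cre transgene, in which the Sf1 promoter drives recombination in somatic cells of the gonad. XY DKO and XX DKO gonads were Sf1-cre+/Tg; Ctnnb1f/f; Sox9f/f, with both genes deleted. XY Sox9KO and XX Sox9KO gonads were Ctnnb1+/f; Sox9f/f, and XY Ctnnb1KO and XX Ctnnb1KO gonads were Ctnnb1f/f; Sox9+/f. The controls, XY Ctr and XX Ctr, carried the same Cre and were Ctnnb1+/f; Sox9+/f, so they too had 1 floxed allele of each gene. Sox9 directs Sertoli cell formation in the testis, and Ctnnb1 encodes β-catenin, which acts in the ovary pathway. XY DKO had 3 arrays and each of the other 7 groups had 4, and each array measured 1 pair of gonads freed of the mesonephros.

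Signal is the deposited linear intensity, scaled by the authors to the same trimmed mean on every array (500.0), with array medians of 120.6 to 168.8. Differences are on the log2(signal + 16) scale, the first-named group minus the second, with the standard error from limma. A gene is called changed at a limma adjusted p under 0.05 over all 11777 genes. Sox9 signal was 8.65 to 34.9 in XY DKO and 7.14 to 41.7 in XY Sox9KO gonads, against 840 to 1025 in XY Ctr gonads. Ctnnb1 averaged 12319 ± 514 in XX Ctnnb1KO and 12532 ± 1161 in XX Ctr gonads (SD, n = 4 each). The sources used here do not say whether its probe set lies in the deleted part, so Ctnnb1 does not check the labels. Xist, the RNA of the inactive X chromosome, had a signal of 51.1 in XX Ctnnb1KO replicate 4, against 7886 to 8553 in the other 3 arrays of that group, and the Y-linked Eif2s3y was at 29.6 in it. The counts of calls that rest on this array are given with and without it.

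Promoter letters differed between the S phase and mitosis classes. The cell cycle genes homology region (CHR, searched as TTTGAA or TTCGAA) is a known element of genes that peak in mitosis, often beside a CCAAT box, and E2F sites (searched as GGCGGGAA, TTTGGCGC or TTTCGCGC) are known from S phase genes. RefSeq windows from 250 bases before to 50 bases after the start (build GRCm38.p6) were matched for 30 of the 37 members and searched on both strands. The 3 mitosis members shown are among those whose group means ranged most widely, and Mcm6 was added after the motif counts were seen, since no S phase member held more E2F matches. Capitals mark motif matches, and each sequence reads 5′ to 3′ on the strand of the gene.
Cdk1: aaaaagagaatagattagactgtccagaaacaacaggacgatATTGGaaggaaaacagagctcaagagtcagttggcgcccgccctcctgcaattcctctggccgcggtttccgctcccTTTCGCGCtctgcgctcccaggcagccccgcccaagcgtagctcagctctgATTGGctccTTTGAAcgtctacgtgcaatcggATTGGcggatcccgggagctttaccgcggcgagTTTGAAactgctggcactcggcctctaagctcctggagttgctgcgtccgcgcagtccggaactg
Plk1: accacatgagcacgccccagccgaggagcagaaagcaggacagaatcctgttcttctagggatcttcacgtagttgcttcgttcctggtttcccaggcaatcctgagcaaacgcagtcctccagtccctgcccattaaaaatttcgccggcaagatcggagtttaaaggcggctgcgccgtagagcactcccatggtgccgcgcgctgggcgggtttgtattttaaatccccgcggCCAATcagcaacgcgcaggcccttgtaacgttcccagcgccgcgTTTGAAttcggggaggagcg
Cdc20: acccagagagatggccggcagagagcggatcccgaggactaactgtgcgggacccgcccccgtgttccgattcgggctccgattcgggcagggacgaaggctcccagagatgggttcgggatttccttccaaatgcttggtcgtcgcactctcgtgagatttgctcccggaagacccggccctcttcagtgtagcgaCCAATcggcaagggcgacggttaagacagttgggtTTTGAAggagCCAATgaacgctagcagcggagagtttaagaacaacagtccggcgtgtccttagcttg
Mcm6: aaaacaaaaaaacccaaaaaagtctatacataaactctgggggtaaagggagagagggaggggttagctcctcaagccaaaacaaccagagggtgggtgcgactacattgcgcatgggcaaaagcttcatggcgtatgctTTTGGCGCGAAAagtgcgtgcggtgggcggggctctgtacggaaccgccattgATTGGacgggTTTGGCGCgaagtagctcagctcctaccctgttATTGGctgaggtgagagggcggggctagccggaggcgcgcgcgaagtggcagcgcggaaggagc
The windows are chr10:69352863-69353162, minus strand for Cdk1, chr7:122159185-122159484, plus strand for Plk1, chr4:118437294-118437593, minus strand for Cdc20 and chr1:128359656-128359955, minus strand for Mcm6. With the start as position 0, Cdk1 held CHR matches beginning at -71 and -15, CCAAT matches at -208, -80 and -48, and 1 E2F match at -131. Plk1 held 1 CHR at 30 and 1 CCAAT at -14. Cdc20 held a CHR at -18 between CCAAT matches at -53 and -8. Mcm6 held E2F matches at -110, -106 and -47, of which the first 2 overlap, with CCAAT matches at -57 and -14 and no CHR.

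A CHR was present in 14 of 17 mitosis promoters (82.4%), against 2 of 13 S phase promoters (15.4%) and 13.4% of the 9544 tested genes with a window. The same 14 mitosis promoters also held a CCAAT, a combination found in 2 of 13 S phase promoters and in 5.7% of tested genes. CCAAT alone was common, in 15 of 17 mitosis promoters (88.2%), 8 of 13 S phase promoters (61.5%) and 39.0% of tested genes. E2F matches showed the opposite division, in 1 of 17 mitosis promoters (5.9%, Cdk1), against 6 of 13 S phase promoters (46.2%) and 6.0% of tested genes. Ccne1, Cdc6 and Tyms, the S phase members of widest range that have a window, held no match to any of these letters in it. Other spellings of an E2F site were not searched, so a window without a match may still hold a site. The Cdc6 window holds gcgggaaa, which was not among the searched letters. That window (98907901 to 98908200, plus strand) also lies after the first listed base of the gene (98907709).

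**Figure D1:**
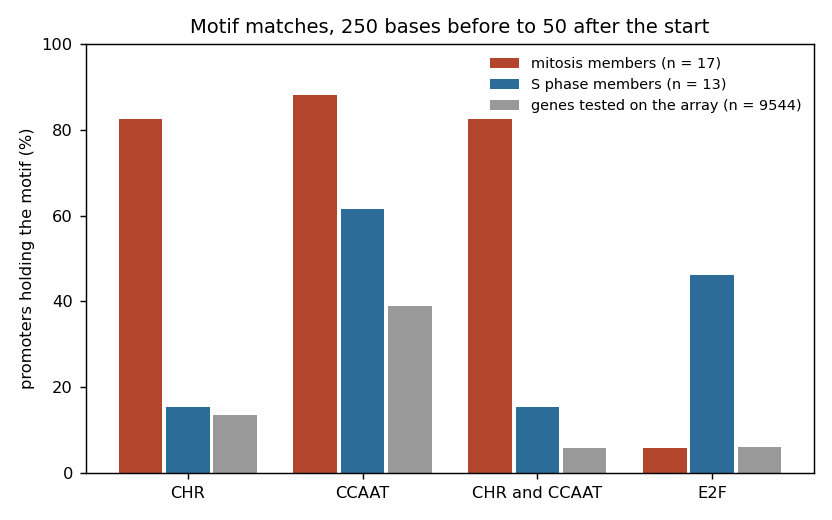
Share of promoter windows (%) that hold a CHR, a CCAAT, both, or an E2F match, for 17 mitosis members, 13 S phase members and 9544 genes tested on the array. CHR stands at 82.4% in mitosis members and 15.4% in S phase members, and E2F at 5.9% and 46.2%.

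On the log2 scale, the range of a gene's group means had a median of 0.595 over the 21 mitosis members (0.232 for Top2a to 1.20 for Aurkb) and 0.393 over the 16 S phase members (0.241 for Pcna to 0.95 for Ccne2). XX Sox9KO had the lowest group mean for 13 mitosis and 9 S phase members. The highest group mean was in XY Ctr or XY Ctnnb1KO for 12 mitosis members and in neither for any S phase member. For S phase members it was most often in XY DKO (7 genes) or XX DKO (4 genes).

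The mean level of the 21 mitosis genes separated the control sexes, whereas the mean of the 16 S phase genes did not. The mitosis mean was 10.89 ± 0.08 in XY Ctr gonads and 10.51 ± 0.05 in XX Ctr gonads (log2, SD, n = 4 each), and no array of one group fell within the other. The S phase mean was 10.89 ± 0.03 in XY Ctr and 11.03 ± 0.16 in XX Ctr gonads, with overlapping arrays. The mitosis mean lay between these levels in XY Sox9KO at 10.60 ± 0.12, and it was 10.80 ± 0.11 in XX Ctnnb1KO and 10.78 ± 0.13 in XX DKO gonads. The XX Sox9KO mean was 10.46 ± 0.15, and the XY Ctnnb1KO mean was 10.88 ± 0.03. The XY DKO arrays were split, with replicates 2 and 3 at 10.91 and 10.92 and replicate 4 at 10.59. The S phase mean was higher than in XY Ctr gonads by 0.114 in XY Sox9KO and by 0.151 in XY DKO gonads. Neither overlapped XY Ctr, though the lowest XY Sox9KO array (10.933) was close to the highest XY Ctr array (10.927). The mitosis differences there were -0.289 without overlap and -0.077 with overlap. In the other knockout groups, S phase arrays overlapped those of the control of the same sex. In whole gonads, fewer dividing cells and less of the mitosis RNAs per cell cannot be told apart.

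**Figure D2:**
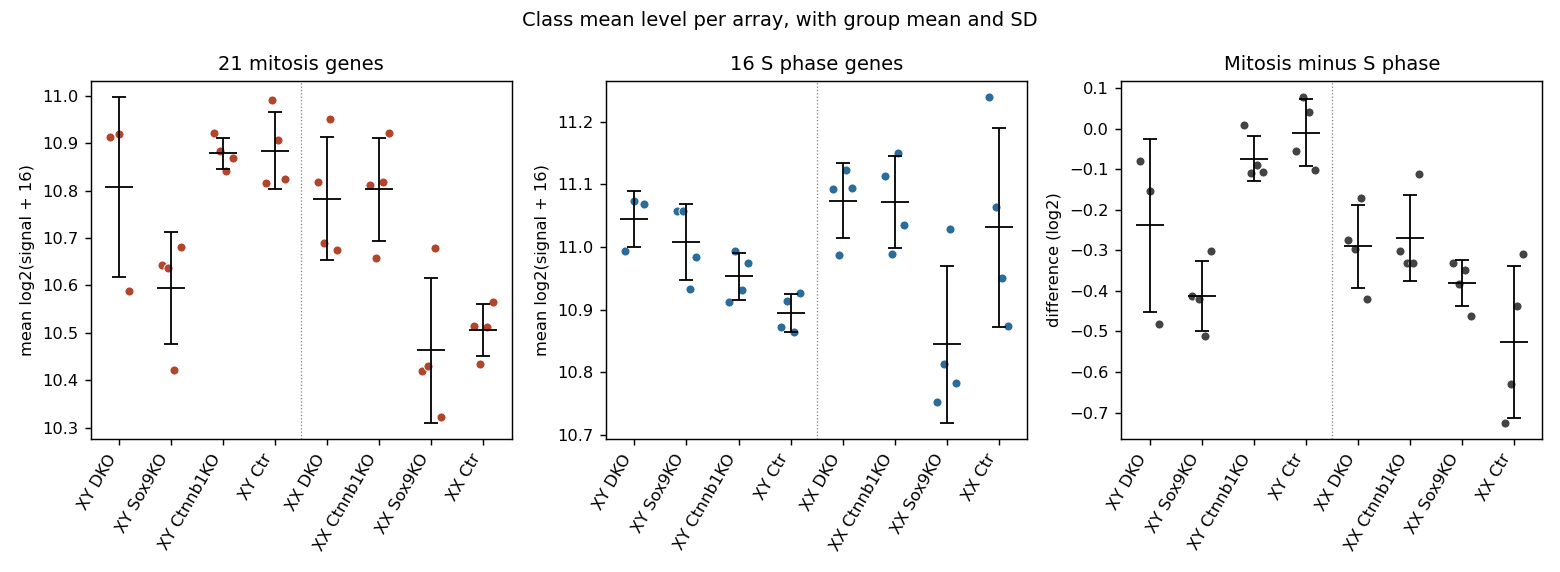
Mean log2(signal + 16) per array over 21 mitosis genes (left) and 16 S phase genes (middle), and their difference (right), for 8 groups. Points are arrays, long bars group means and whiskers SD. Mitosis means were 10.60 in XY Sox9KO and 10.89 in XY Ctr gonads, against 10.51 in XX Ctr gonads.

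In XY Ctr gonads, mitosis genes were mostly higher than in XX Ctr gonads. Of 21 mitosis members 12 were called higher and 1 lower, and of 16 S phase members 0 were called higher and 2 lower. Over all tested genes, 18% were called higher and 19.8% lower (37.8% in either direction). The median difference was 0.35 for mitosis members and -0.08 for S phase members, against -0.02 for all tested genes. The leading genes were the kinases Aurkb and Cdk1 and the checkpoint gene Bub1b.

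Cdk1, the kinase that starts mitosis, had signals of 2439, 3194, 2221 and 2824 in XY Ctr gonads, against 1714, 1349, 1479 and 1447 in XX Ctr gonads. Every XY Ctr array was above every XX Ctr array. The difference was 0.82 ± 0.12 (limma adjusted p = 1.4e-06). Aurkb, the kinase of the chromosomal passenger complex, had 1042, 1031, 1010.1 and 978 in XY Ctr gonads, against 701, 531, 456 and 449 in XX Ctr gonads. The groups did not overlap, and XX Ctr replicate 1 was the highest of its group. The difference was 0.93 ± 0.16 (limma adjusted p = 1.97e-05). Cdc20, which activates the anaphase-promoting complex, had 3128, 3043, 3463 and 3258 in XY Ctr gonads, against 2470.4, 2441, 2398 and 2383 in XX Ctr gonads. Both groups were tight and separate, with a difference of 0.41 ± 0.11 (limma adjusted p = 0.00483). Plk1, the Polo-like kinase, had 489, 438, 444 and 302 in XY Ctr gonads, against 256, 237, 245 and 342 in XX Ctr gonads. Here XY Ctr replicate 4 fell below the highest XX Ctr array, and the difference was 0.60 ± 0.18 (limma adjusted p = 0.00781).

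Bub1b, a spindle checkpoint kinase, was higher by 0.77 ± 0.17 in XY Ctr gonads (limma adjusted p = 0.000395). Aurka, the kinase of spindle poles, differed by 0.64 ± 0.13, and the spindle protein gene Nusap1 by 0.58 ± 0.13 (limma adjusted p = 0.000202 and 0.00067). Cenpe, a kinetochore motor, was higher by 0.57 ± 0.12, and the survivin gene Birc5, Kif20a, Tpx2 and Ccna2 were higher by 0.29 to 0.41 (limma adjusted p at most 0.0338). Bub1 went the other way: this checkpoint kinase had 1182, 1512, 1290.2 and 1449.7 in XY Ctr gonads, against 1710.2, 1553, 2339 and 1741 in XX Ctr gonads. Its difference was -0.42 ± 0.16 with no overlap (limma adjusted p = 0.0396). Of the 15 calls, 13 held whichever of the 8 arrays was left out. Bub1 lost its call without XX Ctr replicate 3 or 4 or XY Ctr replicate 1 or 3, with a highest limma adjusted p of 0.179. Ccna2 lost its own without 5 of the 8, namely XX Ctr replicates 2, 3 and 4 and XY Ctr replicates 2 and 3 (up to 0.134).

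**Figure D3:**
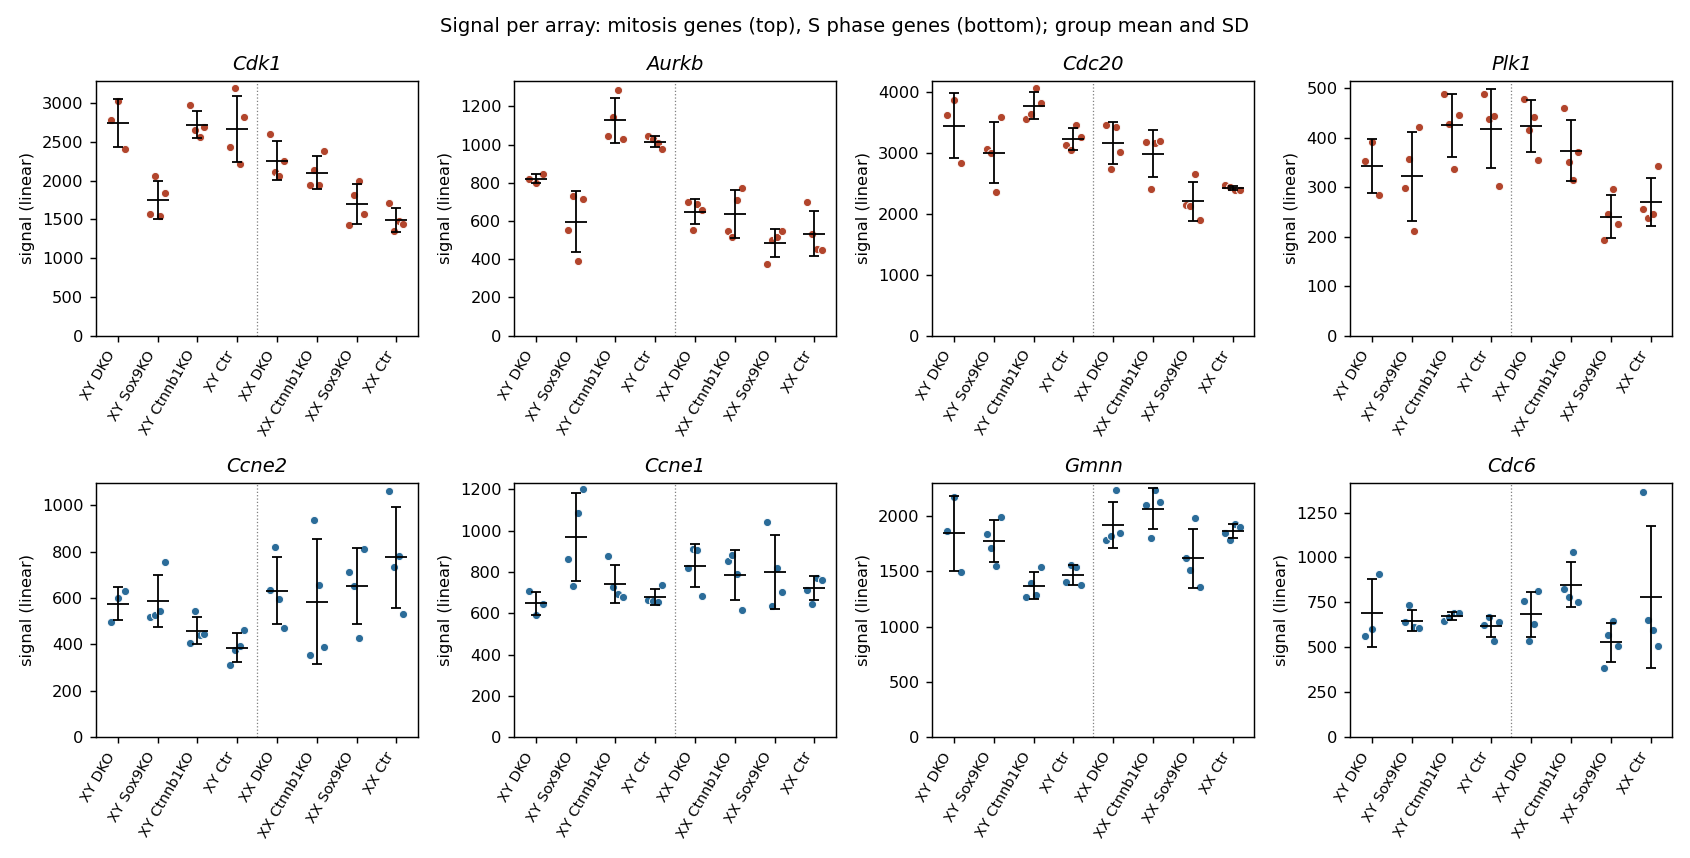
Signal per array (linear scale, axes from 0) of 4 mitosis genes (top) and 4 S phase genes (bottom) in the 8 groups, with group mean and SD. Cdk1 and Aurkb are high in XY Ctr and XY Ctnnb1KO gonads and low in XY Sox9KO, XX Sox9KO and XX Ctr gonads. Cdk1 has its highest group mean in XY DKO gonads, and Ccne2 is lowest in XY Ctr gonads.

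Both called S phase members were lower in XY Ctr gonads. Ccne2, which encodes cyclin E2, had 310.5, 377, 393 and 463 in XY Ctr gonads, against 1059, 732, 782 and 530.2 in XX Ctr gonads. The highest XY Ctr array was below the lowest XX Ctr array, and the XX Ctr arrays were widely spread. The difference was -0.95 ± 0.23 (limma adjusted p = 0.00147). Gmnn, the inhibitor of origin licensing, had 1399, 1553, 1534 and 1378 in XY Ctr gonads, against 1840.2, 1779.9, 1927 and 1899 in XX Ctr gonads. The groups were separate, with a difference of -0.34 ± 0.11 (limma adjusted p = 0.0129). Cdc6, the licensing factor, had 622, 672, 534 and 641 in XY Ctr gonads, against 1367, 652, 595 and 510.2 in XX Ctr gonads, and XX Ctr replicate 1 stood far above the rest. Tyms, thymidylate synthase, had 222, 172, 174 and 172 in XY Ctr gonads, against 185, 236, 233 and 184 in XX Ctr gonads, and the groups overlapped. Neither Cdc6 (-0.23 ± 0.20) nor Tyms (-0.17 ± 0.22) was called, and the 6 MCM genes had differences from -0.17 to 0.18 with no call. All 6 chosen MCM probe sets end in _s_at or _x_at, kinds that may match other transcripts. So do those of Ccne1 and Rrm2 and, among mitosis members, those of Aurkb, Bub1b and Cdc20.

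The 2 probe sets of Ccne1 gave different results, and the chosen one is of a kind (ending in _x_at) that may match other transcripts. The chosen one averaged 679 ± 38.7 in XY Ctr and 723 ± 57.2 in XX Ctr gonads (SD, n = 4 each). The other averaged 405 ± 42.8 in XY Ctr and 911 ± 230.0 in XX Ctr gonads, a difference of -1.11 with no overlap. Both probe sets gave a higher Ccne1 in XY Sox9KO than in XY Ctr gonads, by 0.48 and 0.99. The Tyms probe sets disagreed too, since a second one differed by 0.76 between XY Ctr and XX Ctr gonads. Of the other probe sets of called members in this comparison, 12 of 13 had the same sign, and 1 of Tpx2 did not.

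Among genes outside the member list, 25 of 53 other mitosis genes were called higher in XY Ctr than in XX Ctr gonads and 1 lower. Cdc25c, a phosphatase that activates Cdk1, averaged 717 ± 96 in XY Ctr and 319.7 ± 55.5 in XX Ctr gonads, a difference of 1.13 ± 0.16 (limma adjusted p = 8.08e-07). The cytokinesis genes Racgap1 and Prc1 were higher by 0.89 ± 0.11 and 0.76 ± 0.11, and the condensin gene Ncaph by 0.81 ± 0.12. Of 45 other replication genes, 7 were called higher and 11 lower, counts near the shares over all tested genes (18% higher and 19.8% lower). The replication fork gene Tipin (-0.55 ± 0.10), the histone mRNA binding gene Slbp (-0.37 ± 0.08) and the origin recognition gene Orc5 (-0.51 ± 0.11) were lower, and E2f7, a repressor of the E2F family, was higher by 0.74 ± 0.14 (limma adjusted p at most 0.000636).

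Markers of other cell types moved with these groups. All 18 meiosis genes were called lower in XY Ctr gonads, where their summed signal was 7875 to 9158, against 32977 to 57756 in XX Ctr gonads. The 16 Sertoli cell markers summed to 28014 to 33456 in XY Ctr and 4500 to 5614 in XX Ctr gonads, with 11 of 14 tested called higher and 2 lower. Pregranulosa markers, of the supporting cells of the ovary, summed to 3552 to 4543 in XY Ctr and 23451 to 25254 in XX Ctr gonads, with 12 of 12 called lower. Pan-germ cell markers overlapped, at 19892 to 26603 in XY Ctr and 14310 to 24697 in XX Ctr gonads, with 5 of 15 called higher and 4 lower. Of 6 fetal male germ cell markers 6 were called higher. Of 6 genes on the fetal Leydig cell list 5 were called higher and 1 lower. On that list the array gene Rlf stood for Insl3, because its symbol is also a synonym of Insl3. No probe set carried the symbol Insl3 alone, and Rlf is a separate gene, so it should not be read as a Leydig marker. The counts and sums of that list include it. Of 12 endothelial markers 4 were called higher and 0 lower, and of 7 erythroid markers 0 higher and 2 lower. The part of any of these in the cell cycle differences was not tested.

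Deletion of Sox9 in XY gonads gave 13 called members of 37. In XY Sox9KO against XY Ctr gonads, 10 of 21 mitosis members were called lower and 1 higher. Of 16 S phase members 2 were called higher, the cyclin E genes Ccne1 and Ccne2, and 0 lower. Among all tested genes, 16% were called lower and 22.7% higher (38.7% in either direction), so the share of S phase members called was no larger than that of all tested genes. Nor was the share of the 37 members called in either direction, while mitosis members had a larger share called lower. The median difference was -0.35 for mitosis members and 0.11 for S phase members, against 0.05 for all tested genes. The XY Ctr arrays here are the same as in the comparison of control sexes, so the 2 comparisons are not independent.

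Cdk1 had 1564, 2063, 1540.4 and 1839 in XY Sox9KO gonads, all below the XY Ctr arrays given above, a difference of -0.60 ± 0.12 (limma adjusted p = 0.000137). Aurkb had 553, 728, 389 and 713 in XY Sox9KO gonads, again without overlap and with replicate 3 lowest, a difference of -0.79 ± 0.16 (limma adjusted p = 0.000166). Cenpe showed the smallest p, with 1118, 854, 992 and 728 in XY Sox9KO gonads, against 1438, 1578, 1341 and 1488 in XY Ctr gonads. The groups did not overlap, and the difference was -0.67 ± 0.12 (limma adjusted p = 3.81e-05). The spindle genes Nusap1 (-0.60 ± 0.13) and Kif11 (-0.47 ± 0.11), the kinetochore gene Cenpf (-0.57 ± 0.16), the cytokinesis motor Kif20a (-0.47 ± 0.12), Birc5 (-0.35 ± 0.08), Bub1b (-0.47 ± 0.17) and Aurka (-0.42 ± 0.13) were also lower (limma adjusted p at most 0.0256).

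Cdc20 and Plk1 did not pass the test in XY Sox9KO gonads. Cdc20 had 3057, 3005, 2365 and 3582 and Plk1 had 298, 356, 211 and 421 there, and both overlapped XY Ctr gonads. In both genes XY Sox9KO replicate 3 was lowest and replicate 4 highest. Bub1 was again called in the other direction, with 1619, 1761, 1994 and 1915 in XY Sox9KO gonads, above all 4 XY Ctr arrays. Its difference was 0.42 ± 0.16 (limma adjusted p = 0.0377). Of 21 mitosis members 3 had a positive sign, and besides Bub1 these were Ccnb2 and Ttk, which were not called.

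Among S phase members, Ccne1 had 863, 732, 1085 and 1202 in XY Sox9KO gonads, against 663, 659, 657 and 737 in XY Ctr gonads. XY Sox9KO replicate 2 fell below the highest XY Ctr array, and the difference was 0.48 ± 0.14 (limma adjusted p = 0.00796). Ccne2 had 519, 528, 545 and 754 in XY Sox9KO gonads, all above XY Ctr, a difference of 0.58 ± 0.23 (limma adjusted p = 0.0464). Gmnn had 1832, 1712, 1545 and 1991 and Cdc6 had 639, 734, 615 and 608 in XY Sox9KO gonads, and neither was called (0.26 ± 0.11 and 0.07 ± 0.20). Of the 13 calls, 8 held whichever array was left out, and Ccne1 and Aurka each lost theirs without 1 array (XY Sox9KO replicate 4 and replicate 3; limma adjusted p = 0.0504 and 0.0642). Bub1 (5 of 8 omissions), Bub1b (4) and Ccne2 (6) lost theirs more often, with limma adjusted p up to 0.115, 0.113 and 0.161.

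Of the 53 other mitosis genes, 20 were called lower and 1 higher in XY Sox9KO gonads. Cdc25c (-0.91 ± 0.16), Racgap1 (-0.71 ± 0.11), the kinesin gene Kif18b (-0.63 ± 0.12) and Prc1 (-0.58 ± 0.11) had the smallest p (limma adjusted p at most 9.81e-05). Of the 45 other replication genes, 14 were called higher and 3 lower. Orc5 was higher by 0.61 ± 0.11, Tipin by 0.47 ± 0.10 and Slbp by 0.36 ± 0.08, and E2f7 differed by -0.66 ± 0.14 (limma adjusted p at most 0.000454). All 18 meiosis genes were called higher, with sums of 31114 to 49072 in XY Sox9KO gonads. Sertoli markers summed to 4905 to 6051 there, with 11 of 14 called lower and 2 higher, and pan-germ cell sums of 19361 to 23840 overlapped those of XY Ctr gonads, with 4 of 15 called higher and 5 lower. Pregranulosa markers summed to 26522 to 27447 in XY Sox9KO gonads, with 12 of 12 called higher. Of 6 genes on the fetal Leydig list (with Rlf for Insl3) 5 were called lower and 1 higher. Of 6 fetal male germ cell markers 5 were called lower and 0 higher. Of 12 endothelial markers 2 were called lower and 0 higher, and of 7 erythroid markers 2 higher and 0 lower. Their part in the cell cycle differences was not tested.

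Loss of Sox9 in XX gonads gave no call. Sox9 signal was already low in XX Ctr gonads, at 11.7 to 174.3, and it was 11.1 to 62.5 in XX Sox9KO gonads. In XX Sox9KO against XX Ctr gonads, 0 of 37 members and 0% of tested genes were called by limma (smallest member adjusted p = 0.986). At an unadjusted p under 0.05 there were 3 members and 537 genes. The median difference was -0.21 for S phase members, 14 of which had a negative sign, and -0.04 for mitosis members. Cdk1 had 1422, 1821, 1999.5 and 1569 and Aurkb had 376, 499.8, 514 and 546 in XX Sox9KO gonads, both overlapping XX Ctr gonads. Cdc6 had 387, 568, 646 and 509 and Gmnn had 1616, 1511, 1983 and 1359 in XX Sox9KO gonads, with Gmnn replicate 3 above all XX Ctr arrays and its other 3 below them. None of the 45 other replication genes and 53 other mitosis genes was called.

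The effect of Sox9 loss differed between XY and XX gonads for 7 members, by a test of the difference itself. Sox9 signal was 839.7 to 1024.9 in XY Ctr and 11.7 to 174.3 in XX Ctr gonads, so the amount lost was unlike between the sexes. Among all tested genes, 23.3% differed (12.7% higher and 10.7% lower in XY), so the share of the 37 members called in either direction was no larger. By class, 5 of 21 mitosis members were called lower and 0 higher, a larger share lower than among all tested genes. Of 16 S phase members 2 were called higher and 0 lower, a share near that of all tested genes. Cdk1 had the largest difference of effects among mitosis members, at -0.78 ± 0.17 (limma adjusted p = 0.000715), and this call held whichever of the 16 arrays was left out. Aurkb (-0.67 ± 0.22), Bub1b (-0.64 ± 0.23), Cenpe (-0.54 ± 0.17) and Birc5 (-0.35 ± 0.12) were also lower (limma adjusted p at most 0.0468). Gmnn (0.48 ± 0.15) and the helicase gene Mcm3 (0.47 ± 0.15) were higher (limma adjusted p = 0.0226 and 0.0253). The calls of these 6 were lost without some single arrays, from 1 of 16 for Cenpe to 12 of 16 for Bub1b (limma adjusted p up to 0.114), and without XX Ctr replicate 3 the 7 became 4. Of the other replication genes 13 were higher and 0 lower, led by the ligase gene Lig1 (0.44 ± 0.12), Tipin (0.51 ± 0.15) and Orc5 (0.57 ± 0.16). Of the other mitosis genes 5 were lower, led by Racgap1 (-0.76 ± 0.16), and 1 was higher, Espl1, the gene of separase (0.52 ± 0.17; limma adjusted p = 0.0309).

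Deletion of Ctnnb1 in XX gonads gave 4 called members of 37. In XX Ctnnb1KO against XX Ctr gonads, 4 of 21 mitosis members were called higher and 0 lower, and 0 of 16 S phase members were called, where 4.81% of tested genes were called higher and 5.32% lower (10.1% in either direction). The share of the 37 members called in either direction was near that of all tested genes. All 21 mitosis members had a positive sign (median 0.31, from 0.06 to 0.58), against 10 of 16 S phase members (median 0.11). Cdk1 had 1949.9, 2136, 1949 and 2388 in XX Ctnnb1KO gonads, all above XX Ctr, a difference of 0.49 ± 0.12 (limma adjusted p = 0.0046). Bub1b had 1272, 1148, 1228 and 1364 in XX Ctnnb1KO gonads, against 672, 769, 889 and 1037 in XX Ctr gonads. The groups were separate, with a difference of 0.58 ± 0.17 (limma adjusted p = 0.0198). Birc5 (0.32 ± 0.08) and Ccna2 (0.33 ± 0.11) were called with some overlap (limma adjusted p = 0.00701 and 0.0441).

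The number of XX Ctnnb1KO calls depended on single arrays. Without replicate 4, the array with low Xist, Cdk1 (0.43) and Birc5 (0.32) kept their calls (limma adjusted p = 0.0287 and 0.0201), and Bub1b and Ccna2 did not (0.0651 and 0.15). There were also 2 calls without XX Ctr replicate 2, and 10 without XX Ctnnb1KO replicate 2. That replicate 2 had the lowest mitosis mean of its group, its lowest pan-germ cell sum (25079, against 30793 to 33838 in the other 3) and its highest meiosis sum (50509, against 21853 to 40064). The mitosis mean exceeded that of XX Ctr gonads by 0.30, and by 0.26 without replicate 4. Among all tested genes, 3.77% were called higher and 4.41% lower without replicate 4 (8.18% in either direction). Of mitosis members 9.52% were then called higher, and of S phase members 0%. The share of members of both classes together was below that of all tested genes. Without replicate 4, 1 of 53 other mitosis genes was called higher, Foxm1, a transcription factor of mitotic genes, and 1 of 45 other replication genes, Uhrf1.

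Deletion of both genes in XX gonads gave 7 called members of 37. In XX DKO against XX Ctr gonads, 6 of 21 mitosis members were called higher and 0 lower, and 1 of 16 S phase members was called higher and 0 lower, where 7.29% of tested genes were called higher and 5.61% lower (12.9% in either direction). XX Ctnnb1KO and XX DKO gonads were compared with the same XX Ctr arrays. Cdk1 had 2608, 2107, 2055 and 2259.8 in XX DKO gonads, all above XX Ctr, a difference of 0.59 ± 0.12 (limma adjusted p = 0.000614). Plk1 had 478, 416, 442 and 354 in XX DKO gonads and Cdc20 had 3453, 2738, 3425 and 3017, both without overlap with XX Ctr. Their differences were 0.62 ± 0.18 and 0.37 ± 0.11 (limma adjusted p = 0.0155 and 0.0257). The checkpoint kinase Ttk (0.46 ± 0.15), Aurka (0.41 ± 0.13) and Mki67, the gene of the proliferation antigen Ki-67 (0.26 ± 0.08), were also called higher (limma adjusted p at most 0.0439). A second Aurka probe set, which stood above the array median on none of the 31 arrays, had the opposite sign (-0.05).

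The S phase member was Mcm7, a helicase subunit, with 8966, 7599, 8969.8 and 7957 in XX DKO gonads, against 5404, 7206, 6596 and 7158 in XX Ctr gonads. The groups were separate, with a difference of 0.35 ± 0.11 (limma adjusted p = 0.0346), while the other 5 MCM genes had differences from -0.14 to 0.16. In XX DKO gonads only Cdk1 kept its call whichever of the 8 arrays was left out. There was 1 call without XX DKO replicate 1, 2 without XX DKO replicate 3, 3 without XX Ctr replicate 3 and 4 without XX Ctr replicate 2.

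In XX Ctnnb1KO gonads, 5 of 53 other mitosis genes were called higher, led by Ube2c, an enzyme of the anaphase-promoting complex (0.48 ± 0.13), and 2 of 45 other replication genes, Rpa1 (0.30 ± 0.10) and Uhrf1 (0.24 ± 0.08). In XX DKO gonads these counts were 9 and 3, with none lower in either genotype. Cks2, a partner of Cdk1 (0.52 ± 0.10), Ube2c (0.59 ± 0.13), Ncaph (0.42 ± 0.12) and the spindle gene Dlgap5 (0.51 ± 0.14) led the mitosis genes, and Rpa1, of the single-strand binding complex (0.44 ± 0.10), the polymerase gene Pold2 (0.41 ± 0.13) and the chromatin assembly gene Chaf1b (0.50 ± 0.17) were the replication genes (limma adjusted p at most 0.0442). Over all tested genes 4.81% were called higher in XX Ctnnb1KO and 7.29% in XX DKO gonads. The shares of other replication genes called were no larger than these.

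Pan-germ cell markers moved with these calls, with sums of 25079 to 33838 in XX Ctnnb1KO and 29276 to 37660 in XX DKO gonads, against 14310 to 24697 in XX Ctr gonads. Of 15, 5 were called higher in XX Ctnnb1KO and 4 in XX DKO gonads. The 13 macrophage and leukocyte markers summed to 6612 to 10408 in XX Ctnnb1KO and 8773 to 10474 in XX DKO gonads, against 3225 to 6958 in XX Ctr gonads, with 7 and 9 of 12 tested called higher. Fetal male germ cell markers summed to 2511 to 3705 in XX Ctnnb1KO and 2937 to 3702 in XX DKO gonads, against 518 to 783 in XX Ctr gonads, with 3 of 6 tested called higher and 0 lower in each. Meiosis sums overlapped, with 1 of 18 called lower in XX Ctnnb1KO and 2 in XX DKO gonads and 0 higher.

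Markers of somatic cells moved with these calls too. Pregranulosa markers summed to 13192 to 15421 in XX Ctnnb1KO and 13961 to 15789 in XX DKO gonads, against 23451 to 25254 in XX Ctr gonads. Of these 12, 11 were called lower and 1 higher (Rspo1) in each genotype. Sertoli markers summed to 5846 to 8181 in XX Ctnnb1KO and 6511 to 7772 in XX DKO gonads, against 4500 to 5614 in XX Ctr gonads. Of 14 tested, 6 were called higher in each genotype, 3 lower in XX Ctnnb1KO and 4 lower in XX DKO gonads. Of 6 genes on the list of fetal Leydig cells, the steroid-producing cells of the testis, 3 were called higher and 1 lower in each. That list holds Rlf for Insl3. Without XX Ctnnb1KO replicate 4, 1 of 15 pan-germ cell markers was called higher in place of 5 in XX Ctnnb1KO gonads, and 6 of 12 macrophage and leukocyte markers in place of 7. The pregranulosa, fetal Leydig and fetal male germ cell counts were the same without it, and the Sertoli counts were 5 higher and 2 lower. The part of any of these markers in the mitosis gene differences was not tested.

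Deletion of Ctnnb1 in XY gonads gave no call among the members. In XY Ctnnb1KO against XY Ctr gonads, 0 of 37 members were called by limma, none had an unadjusted p under 0.05, and 0.0679% of tested genes were called (0.00849% higher and 0.0594% lower; 473 at an unadjusted p under 0.05). Cdk1 had 2974, 2658, 2563 and 2696, Aurkb had 1046, 1144, 1287 and 1028 and Cdc20 had 3562, 3644, 4070.2 and 3818 in XY Ctnnb1KO gonads. Only Cdc20 lay wholly above XY Ctr gonads (0.23 ± 0.11, limma adjusted p = 1). The difference in the effect of Ctnnb1 loss between XY and XX gonads was negative for all 21 mitosis members, with a median of -0.33 and a range from -0.71 to -0.01. None of the 37 members was called in that test (smallest limma adjusted p = 0.0927, with 10 members at an unadjusted p under 0.05), in which 4.19% of tested genes differed (2.45% higher and 1.75% lower). Without XX Ctr replicate 4, 1 member was called. Without XX Ctnnb1KO replicate 4, 0 of 37 members were called, where 3.64% of tested genes differed (2.11% higher and 1.54% lower).

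**Figure D4:**
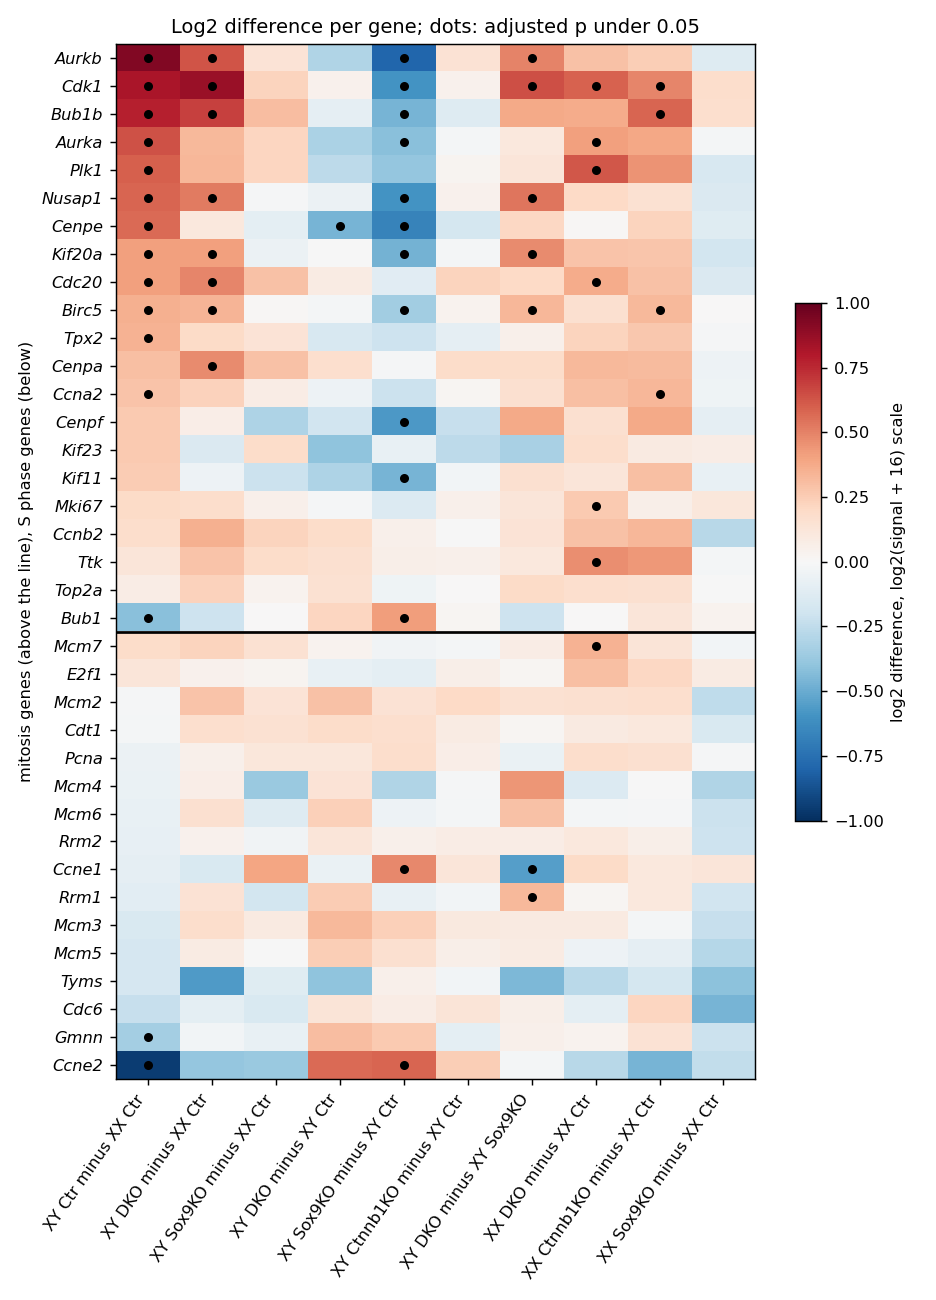
Log2 difference of each of the 37 genes (rows, mitosis above the line and S phase below) in 10 comparisons (columns), red for higher and blue for lower in the first-named group. Dots mark a limma adjusted p under 0.05. The mitosis block is mostly red in XY Ctr, XY DKO, XX DKO and XX Ctnnb1KO minus XX Ctr, with 18 of 21 genes higher in XY DKO minus XX Ctr. It is mostly blue in XY Sox9KO minus XY Ctr, where 3 of 21 genes are higher. Bub1 is blue in XY Ctr minus XX Ctr and red in XY Sox9KO minus XY Ctr.

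Deletion of both genes in XY gonads gave 1 member call against XY Ctr gonads. In XY DKO against XY Ctr gonads, 1 mitosis member was called lower and 0 of 16 S phase members were called, where 7.61% of tested genes were called lower and 9.62% higher (17.2% in either direction). The called gene was Cenpe, with 1213, 988 and 973 in XY DKO gonads, all below the XY Ctr arrays given above. The difference was -0.46 ± 0.13 (limma adjusted p = 0.0107), and the call was lost without XY DKO replicate 3 or replicate 4 (limma adjusted p = 0.0603 and 0.0517). The median difference was -0.05 for mitosis members. It was 0.16 for S phase members, 13 of which had a positive sign, against 0.04 for all tested genes. Of the other replication genes 8 were called higher and 1 lower, led by Slbp (0.30 ± 0.08), Orc5 (0.45 ± 0.12), Lig1 (0.30 ± 0.09) and the primase gene Prim2 (0.34 ± 0.11). Of the other mitosis genes 1 was called, Ckap2l (-0.62 ± 0.17; limma adjusted p = 0.0103). Beside these, 10 of 18 meiosis genes, 10 of 12 pregranulosa markers and 7 of 12 macrophage and leukocyte markers were called higher and none lower, and of 14 Sertoli markers 10 were called lower and 1 higher. Of 15 pan-germ cell markers 4 were called higher and 1 lower, and of 6 genes on the fetal Leydig list (with Rlf for Insl3) 5 lower and 1 higher. The part of all these markers in the member values was not tested.

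XY DKO and XY Sox9KO gonads, which both lack Sox9, were compared directly. In XY DKO gonads 5 mitosis members were called higher and 0 lower, and 1 S phase member was called higher and 1 lower, where 11.1% of tested genes were called higher and 10.8% lower (21.8% in either direction). Cdk1 had 2779.7, 3032 and 2412 in XY DKO gonads, against 1564, 2063, 1540.4 and 1839 in XY Sox9KO gonads. The groups were separate, with a difference of 0.65 ± 0.13 (limma adjusted p = 0.00031). Aurkb had 821, 797 and 847 in XY DKO gonads, all above XY Sox9KO gonads, a difference of 0.49 ± 0.17 (limma adjusted p = 0.036). Nusap1 (0.54 ± 0.14), Kif20a (0.47 ± 0.12) and Birc5 (0.33 ± 0.09) were also called higher (limma adjusted p at most 0.00676). Ccne1 had 707, 594 and 644 in XY DKO gonads, against 863, 732, 1085 and 1202 in XY Sox9KO gonads, with no overlap. Its difference was -0.55 ± 0.15 (limma adjusted p = 0.00993).

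Rrm1, a subunit of ribonucleotide reductase, had 3928, 3874 and 4277 in XY DKO gonads, against 3422, 3602, 3008 and 2834 in XY Sox9KO gonads. The groups were separate, with a difference of 0.33 ± 0.11 (limma adjusted p = 0.0376). Its other 2 probe sets had the opposite sign, and the mean of all 3 differed by 0.07 (limma adjusted p = 0.748). Cdk1 and Nusap1 kept their calls whichever of the 7 arrays was left out. Without XY DKO replicate 3 there were 3 calls in place of 7. Of the other mitosis genes 13 were called higher and 0 lower in XY DKO gonads, led by Kif18b (0.58 ± 0.13), Ncaph (0.50 ± 0.13), Racgap1 (0.44 ± 0.12) and the kinetochore gene Nuf2 (0.43 ± 0.12). Of the 45 other replication genes 2 were called higher, Pola1 (0.43 ± 0.13) and E2f8 (0.57 ± 0.20), and 2 lower, Orc2 (-0.51 ± 0.13) and Orc1 (-0.75 ± 0.22). These shares were below those of all tested genes (11.1% higher and 10.8% lower).

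Cell type markers differed between these genotypes as well. Meiosis genes summed to 10514 to 26802 in XY DKO and 31114 to 49072 in XY Sox9KO gonads, with 11 of 18 called lower and 0 higher. Of 15 pan-germ cell markers 5 were called higher and 0 lower in XY DKO gonads, and of 12 macrophage and leukocyte markers 9 were higher and 0 lower. Sertoli markers summed to 8958 to 10051 in XY DKO and 4905 to 6051 in XY Sox9KO gonads, with 7 of 14 called higher and 3 lower. Pregranulosa markers summed to 12007 to 12511 in XY DKO and 26522 to 27447 in XY Sox9KO gonads, with 11 of 12 called lower and 1 higher. Genes on the fetal Leydig list (with Rlf for Insl3) summed to 15056 to 18392 in XY DKO and 4197 to 4883 in XY Sox9KO gonads. Of these, 4 of 6 were called higher and 0 lower. Fetal male germ cell markers summed to 2754 to 4861 in XY DKO and 509.9 to 896 in XY Sox9KO gonads, with 4 of 6 tested called higher and 0 lower. Their part in the mitosis gene differences was not tested.

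XY DKO replicate 4 stood apart from the other 2 arrays of its group in several members. Its Cdc20 signal was 2840.0, against 3626 and 3863 in replicates 2 and 3, and its Plk1 signal was 284, against 353 and 391. Its Gmnn signal was 1495, against 1864 and 2168, whereas its Cdc6 signal of 908 was the highest of the group, against 563 and 601. Its pan-germ cell sum was 18671, against 33032 and 38923, and its meiosis sum was 10514, against 19583 and 26802. The part of these sums in the member values was not tested. The mitosis mean of XY DKO minus that of XY Ctr gonads was -0.08 with all 3 arrays and 0.03 without replicate 4, where 2 members were called in place of 1.

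The effect of Ctnnb1 loss in XY gonads differed with the state of Sox9 for 2 members. The difference of effects, without Sox9 minus with Sox9, was 0.61 ± 0.17 for Cdk1 and -0.67 ± 0.21 for Ccne1 (limma adjusted p = 0.0212 and 0.037), where 5.27% of tested genes were higher and 4.47% lower (9.75% in either direction). The share of members called was no larger than that of all tested genes. For mitosis members the median was 0.15, with 17 of 21 positive, and for S phase members -0.02. Neither call held under every omission of an array. Cdk1 lost its own without XY Ctr replicate 2, XY DKO replicate 3 or XY Sox9KO replicate 3 (limma adjusted p up to 0.0724), and Ccne1 in 9 of 15 omissions (up to 0.0989). Cdc25c (0.83 ± 0.23), Nuf2 (0.58 ± 0.17) and Racgap1 (0.52 ± 0.16) were called among the other mitosis genes.

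Both XY genotypes without Sox9 were also set against the ovary controls. In XY Sox9KO against XX Ctr gonads, 0 of 37 members were called by limma (smallest adjusted p = 0.137, with 3 at an unadjusted p under 0.05), and 0.628% of tested genes were (0.442% higher and 0.187% lower). In XY DKO against XX Ctr gonads, 8 mitosis members were called higher and 0 lower and no S phase member was called, where 14.6% of tested genes were called higher and 11.7% lower (26.2% in either direction). Cdk1 differed by 0.86 ± 0.13, Bub1b by 0.69 ± 0.18, Aurkb by 0.63 ± 0.17 and Nusap1 by 0.52 ± 0.14 (limma adjusted p at most 0.00637). Cdc20 (0.49 ± 0.12), Cenpa, the centromeric histone gene (0.47 ± 0.17), Kif20a (0.41 ± 0.12) and Birc5 (0.34 ± 0.09) were the others (limma adjusted p at most 0.0339). A second Cenpa probe set had the opposite sign, averaging 270.1 ± 54.2 in XY DKO (SD, n = 3) and 372 ± 26.0 in XX Ctr gonads (SD, n = 4), a difference of -0.46 with no overlap, and the remaining one had the sign of the chosen one. Of the 8 calls, Cdk1, Aurkb, Cdc20, Nusap1 and Birc5 kept their calls whichever array was left out. Of the other mitosis genes 18 were called higher and 0 lower, led by Ncaph (0.82 ± 0.13) and Racgap1 (0.63 ± 0.12), and of the other replication genes 7 higher and 3 lower, with Rpa1 at 0.52 ± 0.10 and Orc2 at -0.67 ± 0.13.

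Cell type markers moved with these calls in XY DKO against XX Ctr gonads. Of 18 meiosis genes 13 were called lower and 0 higher, with sums of 10514 to 26802 in XY DKO and 32977 to 57756 in XX Ctr gonads. Of 12 pregranulosa markers 11 were called lower and 1 higher, with sums of 12007 to 12511 in XY DKO and 23451 to 25254 in XX Ctr gonads. Macrophage and leukocyte markers summed to 9058 to 10495 in XY DKO and 3225 to 6958 in XX Ctr gonads, with 10 of 12 tested called higher and 0 lower. Sertoli markers summed to 8958 to 10051 in XY DKO and 4500 to 5614 in XX Ctr gonads, with 6 of 14 called higher and 3 lower. Of 15 pan-germ cell markers 7 were called higher and 0 lower, and of 6 fetal male germ cell markers 5 and 0. Of 6 genes on the fetal Leydig list (with Rlf for Insl3) 5 were called higher and 0 lower. Their part in the mitosis gene differences was not tested.

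Between the sexes lacking both genes, no member was called. In XY DKO against XX DKO gonads, 0 of 37 members passed limma (smallest adjusted p = 0.177, with 3 at an unadjusted p under 0.05), where 5.22% of tested genes were called (3.45% higher and 1.77% lower). The median difference was 0.06 for mitosis members and -0.03 for S phase members. Ccne1 had the largest difference (-0.35 ± 0.15, limma adjusted p = 0.183), with overlapping arrays. Aurkb had the largest among mitosis members, with 821, 797 and 847 in XY DKO gonads, against 700.1, 552, 687 and 655 in XX DKO gonads. The groups did not overlap, and the difference was 0.34 ± 0.17 (limma adjusted p = 0.249). Of the 45 other replication genes 1 was called, Orc2 (-0.58 ± 0.13; limma adjusted p = 0.00691), and of the 53 other mitosis genes 0 were.

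By their chosen probe sets, 13 of the 37 members were called in no comparison. The licensing and helicase genes Cdt1, Mcm2, Mcm4, Mcm5 and Mcm6 had no call in any comparison, with ranges of group means from 0.319 to 0.54 on the log2 scale. The licensing factor gene Cdc6 (0.682), the nucleotide synthesis gene Tyms (0.57), the replication clamp gene Pcna (0.241), the ribonucleotide reductase gene Rrm2 (0.309) and E2f1 (0.304) likewise had none. Of mitosis members, the cytokinesis motor Kif23, cyclin B2 (Ccnb2) and the topoisomerase gene Top2a had no call, with ranges of 0.402, 0.638 and 0.232. Ccnb2 averaged 2466 ± 658 in XY DKO gonads (SD, n = 3), the highest group, and 1585 ± 481 in XX Sox9KO gonads (SD, n = 4), the lowest. Other probe sets, not tested singly, differed for some of these genes. A second E2f1 probe set averaged 333.6 ± 28.0 in XY Sox9KO and 496.4 ± 51.0 in XY Ctr gonads (SD, n = 4 each). A second Mcm6 probe set averaged 3008.8 ± 237.0 in XY Sox9KO and 2500.9 ± 277.7 in XY Ctr gonads (SD, n = 4 each). The chosen Mcm6 probe set averaged 6850.9 ± 793.5 and 7066.3 ± 160.7 in these groups. A second Kif23 probe set averaged 1189.7 ± 48.9 in XY Sox9KO and 1511.6 ± 79.0 in XY Ctr gonads (SD, n = 4 each).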

How the data were processed

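Total RNA from single pairs of gonads (40 ng, amplified) was hybridised to 31 single-colour arrays. The authors deposited a linear intensity for every probe set. The submitters' processing notes name MAS5 (version: not given in these sources), and all arrays share a common trimmed mean. Of 45101 probe sets, 64 controls were left out. In the platform annotation 34945 had 1 gene symbol, 932 several and 9160 none. Each gene kept its probe set of highest mean, and genes above the array median on at least 3 arrays were tested (11777 of 18193). Probe sets ending in _s_at or _x_at may match other transcripts.

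Log2(signal + 16) was fitted with limma 3.58.1 (R 4.3.3; trended variance, 23 residual degrees of freedom) over all 8 groups, with Benjamini-Hochberg adjustment over all tested genes and calls at 0.05. On simulated data for XY Ctr minus XX Ctr (11777 genes), 20.9% of genes changed 1.25-fold, 67.2% changed 1.5-fold and 95.5% changed 2-fold were recovered, with 4 false among 126 calls. The number of arrays limits precision. Figures were drawn with Python 3.11.15.

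Members, lists and markers were chosen with earlier results of these data known. For Insl3 of the fetal Leydig list, the array gene Rlf was read, a separate gene whose symbol is also a synonym of Insl3. Every called member is named; values per array are given for the members of widest range in each class and for others as their result needs; up to 4 pathway genes a list are named by adjusted p. The alternatives tried were testing without the filter, pseudocounts of 1 and 64, fitting only the arrays compared, quantile normalization, the mean of a gene's probe sets, the replicate number as a block, and leaving out each array. Same-numbered arrays of different groups did not deviate together (median correlation -0.013 over 105 pairs), so the numbers do not pair them.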

Additional observations from a re-analysis of the deposited data

Results flagged for a closer look

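Of 259 sets of 4 arrays (a member in a group), 16 (6.18%) had 1 array far from the other 3, where chance gives about 1 in 20. Among S phase members these signals were 737.04 for Ccne1 in XY Ctr replicate 4, 754.44 for Ccne2 in XY Sox9KO replicate 4, 3610.41 for Cdt1 in XY Sox9KO replicate 3, 546.82 for E2f1 in XY Ctr replicate 4, 2228.86 for Gmnn in XX DKO replicate 3, 1479.82 for Mcm2 in XY Ctnnb1KO replicate 1, 5721.04 for Rrm2 in XY Ctnnb1KO replicate 4 and 221.71 for Tyms in XY Ctr replicate 1. Among mitosis members they were 2531.35 for Birc5 in XX Ctr replicate 1, 2409.59 for Cdc20 in XX Ctnnb1KO replicate 2, 1278.58 for Cenpa and 1063.35 for Ttk in XX Sox9KO replicate 3, 1103.44 for Cenpe and 2760.29 for Kif11 in XX DKO replicate 3, 3837.81 for Top2a in XY Ctr replicate 2 and 681.84 for Ttk in XY Ctr replicate 1.

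The effect of Sox9 loss differed between XY and XX gonads, by the limma test of the difference, for Gmnn (0.479), Mcm3 (0.4696), Aurkb (-0.6665), Birc5 (-0.3471), Bub1b (-0.6395), Cdk1 (-0.777) and Cenpe (-0.5441), as XY minus XX on the log2 scale. The effect of Ctnnb1 loss in XY gonads differed with the state of Sox9 for Ccne1 (-0.6706) and Cdk1 (0.6058), as without Sox9 minus with Sox9. Over all tested genes 23.3% were called in the first of these tests and 9.75% in the second, and the members' shares were no larger. Only the Cdk1 call in the first test held whichever array was left out.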

How the results depend on the processing

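Of 64 calls of a member in a comparison, the mean of all probe sets lost 10, no filter 8, only the arrays compared 11, quantile normalization 6, the replicate block 5, a pseudocount of 64 lost 1 and a pseudocount of 1 lost 0. No called direction reversed under these alternatives. Fitting only the arrays compared gave 2 members called in place of 4 in XX Ctnnb1KO minus XX Ctr, 4 in place of 7 in XX DKO minus XX Ctr, 4 in place of 1 in XY DKO minus XY Ctr, 3 in place of 7 in XY DKO minus XY Sox9KO and 1 in place of 0 for the difference in Ctnnb1 effect between XY and XX. For XY DKO minus XY Ctr, the mean of all probe sets gave 3 and quantile normalization 2. For the Ctnnb1 effect in XY without minus with Sox9 (2 called), the mean of all probe sets gave 4, and no filter, quantile normalization and the replicate block gave 1 each. The cause of these shifts was not tested. The replicate block gave 15 calls in XY Ctr minus XX Ctr and 12 in XY Sox9KO minus XY Ctr, and apart from the Ctnnb1 effect in XY just given it moved no count by over 1.5 times. Arrays of the same number share only a number.

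Leaving out 1 array gave 2 to 10 calls in XX Ctnnb1KO minus XX Ctr, 1 to 7 in XX DKO minus XX Ctr, 0 to 2 in XY DKO minus XY Ctr, 3 to 9 in XY DKO minus XY Sox9KO, 4 to 7 for the difference in Sox9 effect, 0 to 1 for that in Ctnnb1 effect, and 0 to 3 for the Ctnnb1 effect in XY without minus with Sox9. It gave 13 to 16 in XY Ctr minus XX Ctr, 10 to 14 in XY Sox9KO minus XY Ctr and 6 to 11 in XY DKO minus XX Ctr.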
